A study of Homo sapiens and Mus musculus with 25 samples.

Results

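The peak lists of 8 antibodies raised against trimethylated lysine 4 of histone H3 (H3K4me3) in K562 cells were compared, of 25 samples in the series. The members were chosen by the measured length of their merged peaks on chromosomes 1 to 22 and X. The 2 antibodies over 100 Mb, Abcam ab8580 and EMD Millipore 07-473, were set against the other 6: Abcam ab12209, Abclonal A2357, EMD Millipore 05-745R, Thermo Fisher PA5-40086, Diagenode C15410003 and EpiGentek A-4033-050. They are called the widespread and the narrow lists below. K562 is an established human chronic myeloid leukaemia line with erythroid features, and all libraries came from its chromatin by internally calibrated ChIP-seq, in which nucleosomes with a known modification are spiked in before the pull-down. Each antibody gave 1 library and 1 list. Both widespread libraries were amplified for 8 cycles beside the input labelled AR16. Among the narrow ones, 05-745R was amplified for 8 cycles beside AR16, ab12209, A2357 and PA5-40086 for 12 cycles beside AR16, and C15410003 and A-4033-050 for 8 cycles beside AR17. The lists of 5 antibodies against H3K4me1 and 4 against H3K4me2 served as readouts and were not used to choose the members. All were beside AR16, as both widespread ones were. EMD Millipore 05-1338 (H3K4me2) had 12 cycles and the other 8 of these libraries had 8 cycles.

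Lysine 4 of histone H3 carries up to 3 methyl groups, added by enzymes of the SET1 and MLL families. The trimethyl form is classically found at the start of active and poised genes, many of them in CpG islands. The monomethyl form marks enhancers and the flanks of promoters, and the dimethyl form occurs at both. An antibody that also binds a neighbouring methylation state can pull down nucleosomes that carry it.

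Stretches of the reference genome show places that only the widespread lists called, with each CG pair in capitals. The first is the middle of the widest distal region called by both widespread and by no narrow list (GRCh38 chr16:23824695-23824994, plus strand, outside any protein-coding gene). The second is the middle of the widest such region in the promoter of a tissue-restricted gene, the olfactory receptor OR6N1 (chr1:158772093-158772392, plus strand).
Distal region near PRKCB: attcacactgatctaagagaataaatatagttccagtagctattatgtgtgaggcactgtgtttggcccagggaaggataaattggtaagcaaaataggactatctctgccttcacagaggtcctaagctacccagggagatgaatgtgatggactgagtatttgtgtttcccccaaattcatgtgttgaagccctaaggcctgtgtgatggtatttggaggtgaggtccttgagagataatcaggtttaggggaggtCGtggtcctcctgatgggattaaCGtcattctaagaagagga
Promoter of OR6N1: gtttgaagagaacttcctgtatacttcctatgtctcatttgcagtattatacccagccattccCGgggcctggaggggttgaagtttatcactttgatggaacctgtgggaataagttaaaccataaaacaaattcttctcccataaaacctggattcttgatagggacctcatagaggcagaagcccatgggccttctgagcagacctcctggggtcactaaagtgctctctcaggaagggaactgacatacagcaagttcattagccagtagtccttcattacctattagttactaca
These 300-base stretches hold 2 and 1 CG pairs, and each has a GC content of 44.3%. Over whole lists, the widespread lists were poorer in CG pairs than the narrow ones. The ab8580 list had 13.3 CG pairs per kb and a GC content of 44.6%, the 07-473 list 21.3 and 46.7%, and the narrow lists 38.6 to 55.1 and 50.6% to 55.9%.

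Covered length chose the members, so lengths are described and not tested. Assembly gaps were left out of covered lengths but not of the width of a single peak. The ab8580 list held 721215 peaks over 743 Mb and the 07-473 list 233923 peaks over 165 Mb. The nearest list outside the threshold, 05-745R, covered 42.9 Mb with 33922 peaks. Of the 8 lists, that of ab8580 alone held peaks over 1 Mb, 1 of 18.0 Mb on chromosome 1 and 1 of 8.10 Mb on chromosome 16. These widths are counted from end to end, and how much of them is assembly gap is not given here. The H3K4me1 lists of Abcam ab8895 and Cell Signaling Technologies 5326 BF and the H3K4me2 list of Abcam ab7766 each held 1 peak of 8.10 Mb too. A2357 followed 05-745R with 38.9 Mb, and the other 4 narrow lists covered 18.7 to 24.3 Mb.

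Most of the added length lay outside promoter windows, which make up 1.28% of the sequence. Distal sequence was defined as lying outside protein-coding genes, over 5 kb from the canonical transcription start site (TSS) of every annotated gene. Other annotated starts of a gene were not considered. There ab8580 covered 257 Mb, 07-473 48.8 Mb and the narrow lists 1.02 to 5.38 Mb. In gene bodies, meaning protein-coding genes outside their promoter windows, the lengths were 387 Mb, 76.0 Mb and 5.08 to 15.9 Mb. In promoter windows, 1 kb either side of the canonical TSS of 19962 protein-coding genes, they were 23.8 Mb, 20.1 Mb and 9.02 to 16.7 Mb. Promoter windows thus made up 3.21% of the ab8580 list, 12.1% of the 07-473 list and 38.7% to 62.3% of a narrow list. Extra bases are those under no narrow list. Relative to the size of each place, extra 07-473 bases made up 8.17% of promoter windows, 3.17% of distal sequence and 4.58% of gene bodies. For ab8580 the shares were 20.6%, 18.6% and 29.0%, and of the part of each place outside the narrow lists 39.5%, 18.7% and 29.5%.

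**Figure D1:**
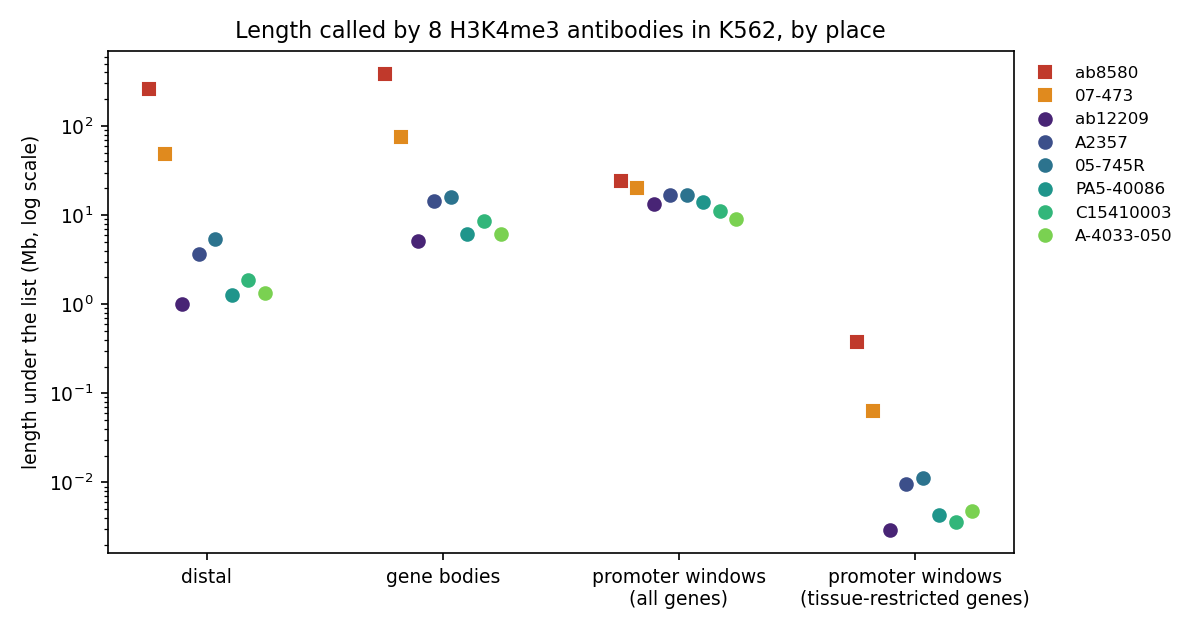
Length under each of the 8 H3K4me3 lists in Mb on a log axis, by place, with squares for the widespread and circles for the narrow lists and 1 point per antibody. The widespread lists lie above the narrow ones in every place, by the least in promoter windows of all genes (23.8 and 20.1 Mb against at most 16.7 Mb).

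Peaks that met no narrow peak by a single base are called extra peaks. They numbered 693875 of the 721215 ab8580 peaks (96.2%) and 201270 of the 233923 07-473 peaks (86.0%). Of the extra ab8580 peaks, 281438 were distal, 353484 lay in gene bodies and 5605 touched a promoter window. These were 97.6%, 97.9% and 36.2% of all ab8580 peaks so placed. For 07-473 the counts were 83128 (91.0%), 92620 (90.2%) and 2765 (20.7%). Peaks that touched no promoter window were placed by their midpoint. Extra peaks were short. Their median width was 494 bases for ab8580 and 304 bases for 07-473, against 4208 and 1724 bases for the peaks that met a narrow peak. The 07-473 list also carries a signal value for each peak, the authors' own, and its median was 7.35 over extra peaks and 17.8 over shared ones. The ab8580 list gives positions only. The narrow lists also held peaks that met no other narrow list, from 33 of 14172 in ab12209 (0.233%) to 10091 of 33922 in 05-745R (29.7%). For 05-745R these were 46.7% of its distal peaks and 38.6% of its peaks in gene bodies.

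Counted base by base, the extra sequence, under a widespread list and under no narrow list, came to 699.5 Mb for ab8580 and 119.6 Mb for 07-473. The shorter set lay mostly inside the longer. Of the extra bases of 07-473, 78.7% were also under ab8580, where 24.4% of all sequence outside the narrow lists was under ab8580. In the other direction, 13.5% of the extra ab8580 bases were under 07-473. Both lists together called 94.1 Mb that no narrow list called. The share of extra 07-473 bases under ab8580 was 74.2% in distal sequence, 81.5% in gene bodies and 77.4% in the promoters of tissue-restricted genes.

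Extra bases of 07-473 lay closer to the narrow peaks than those of ab8580. Within 1 kb of a narrow peak were 23.7% of the extra 07-473 bases and 7.27% of the extra ab8580 bases. Over 50 kb from any narrow peak were 13.7% and 25.7% of them, and 52.3% of all sequence outside the narrow lists.

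In distal sequence, the extra bases came to 252 Mb for ab8580 and 43.0 Mb for 07-473, and 31.9 Mb were called by both. The widest distal region that both called and no narrow list called spans 6793 bases on chromosome 16 (chr16:23821449-23828241), 7.74 kb from the TSS of PRKCB, a protein kinase C gene active in blood cells, and 7.05 kb from the nearest narrow peak. All 5 H3K4me1 lists and the H3K4me2 lists of Abcam ab7766 and Cell Signaling Technologies 9725 covered it in full, Thermo Fisher 710796 covered 96.0% of it and 05-1338 46.9%. Its highest 07-473 value was 9.82, above the 7.35 median of the extra peaks. The second spans 5623 bases (chr6:51048012-51053634), 229 kb from TFAP2B, a developmental transcription factor gene. The third spans 5140 bases (chr2:145691048-145696187), 1171 kb from the TSS of ZEB2, another transcription factor gene. The next in width lie nearest to RGPD4 (5106 bases), MRAP2 (4726 bases), GSDMC (4579 bases), RAN (4431 bases), ARHGAP12 (4419 bases), NAMPT (4380 bases) and TNP1 (4215 bases). In these 10 regions the 05-1338 list covered from 25.2% (ARHGAP12) to 82.3% (RGPD4), and the authors' corrected H3K4me3 list covered 0% of each. That corrected list covered 0.918% of all distal bases called by both widespread lists alone, and 0.397% of distal sequence outside the narrow lists. The regions near GSDMC, ARHGAP12 and TNP1 adjoined a narrow peak, and the region near RAN lay 1.35 kb from one. The other 6 lay 7.05 to 27.5 kb away.

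Distal sequence near erythroid, housekeeping and cell cycle genes was called more widely than distal sequence near tissue-restricted ones. Within 50 kb of the TSS of 26 erythroid genes, 44.8% of distal bases were extra bases of ab8580 and 12.7% of 07-473. Near 23 housekeeping genes the values were 55.6% and 12.1%, and near 20 cell cycle genes 49.6% and 12.3%. Near the 685 tissue-restricted genes they were 22.8% and 3.51%, and near all genes 32.7% and 6.71%.

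In gene bodies the pattern was a partial, fragmented cover. Among 11340 gene bodies of at least 20 kb, 4189 (36.9%) had at least 50% of their length under ab8580 and 24 (0.212%) under 07-473. The cover was larger where more narrow lists called the promoter. Where no narrow list called the promoter (3656 genes), the median cover was 21.8% for ab8580 and 3.06% for 07-473. Where 1 to 5 did (3818 genes), it was 34.6% and 6.29%, and where all 6 did (3866 genes), 49.8% and 7.91%. The 6 narrow lists combined covered 0%, 1.29% and 2.08% of these bodies. The mean cover over the H3K4me1 lists had the same order, with medians of 38.8%, 63.4% and 81.3%.

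The genes with the most bases called by both widespread lists alone were long. The body of a named gene is its full annotated span without its own canonical promoter window. It can therefore hold sequence upstream of the canonical TSS, and other genes. ZFPM2, which encodes a cofactor of GATA factors, had 130.7 kb of such bases in a body of 1212 kb. ab8580 covered 53.1% of that body, 07-473 14.4% and the narrow lists 0.0221% to 1.97%. RUNX1, a regulator of blood formation, had 102.6 kb of 1215 kb, with 66.8% under ab8580, 10.4% under 07-473 and at most 1.72% under a narrow list. KAZN (102.4 kb), SGMS1 (90.3 kb), ALDH1A2 (86.4 kb), NFIA (83.9 kb), SMYD3 (78.6 kb), MYO3B (71.2 kb), CCNY (70.6 kb) and SOX5 (69.3 kb) followed. The canonical promoter windows of NFIA and MYO3B were in no narrow list, and those of RUNX1, SGMS1, ALDH1A2 and SMYD3 were in all 6. Other starts of these genes were not considered, and the narrow lists combined covered 5.21% of the NFIA body and 1.88% of that of MYO3B. By share of the body, BCL2L1, which encodes the survival protein BCL-XL, led with 50.3%. ab8580 covered all of its body, 07-473 72.0% and the narrow lists 7.43% to 20.3%. ZNF121 (48.0%), DUSP10 (46.5%), the glucose transporter gene SLC2A1 (46.4%) and RESF1 (45.8%) came next. ZNF121 and RESF1 stood apart from the other 3 in the H3K4me2 lists, whose mean cover was 37.7% and 49.2% against 80.6% to 88.2%.

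Of the erythroid genes, ANK1, which encodes the red cell membrane protein ankyrin, had 29.1 kb called by both widespread lists alone, in a body of 241.5 kb. ab8580 covered 68.6% of it, 07-473 18.2% and the narrow lists 1.72% to 5.05%. HBG2 and HBE1, fetal and embryonic globin genes, had 27.4 and 22.8 kb, in annotated bodies of 250.4 and 235.3 kb. These bodies (chr11:5253188-5505605 and chr11:5268345-5505652) overlap each other over most of their length, so the 2 values are not separate. Where in them the called bases lie is not given here. In the transcription factor gene MYB it was 7.80 kb of 36.9 kb. There ab8580 covered 94.1%, 07-473 40.0% and the narrow lists 0.724% to 17.8%.

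Promoters that are silent in this line were approximated by 10 lists of tissue-restricted genes, since expression was not measured in the files. At least 1 base of the promoter window lay under ab8580 for 15027 of all 19962 genes (75.3%), under 07-473 for 13883 (69.5%) and under at least 1 narrow list for 12277 (61.5%). Of the 685 tissue-restricted promoters, ab8580 called 398 (58.1%), 07-473 called 113 (16.5%) and single narrow lists called 5 to 15 (0.730% to 2.19%). A peak in ab8580 and in no narrow list was found at 386 of them (56.4%, against 20.1% of all promoters). For 07-473 there were 99 (14.5%, against 11%), and for both lists together 88 (12.8%, against 8.71%).

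Those backgrounds include promoters that a narrow list called, which could not count as extra. Among the 7685 promoters in no narrow list, ab8580 called 52.2%, 07-473 called 28.6% and both called 22.6%. For the 670 tissue-restricted promoters among them the shares were 57.6%, 14.8% and 13.1%. The ab8580 share of the tissue-restricted promoters was thus a little above that of all promoters without a narrow peak and the 07-473 share below it, which is a description without a test. By length, extra ab8580 bases made up 26.8% of their windows, against 29.0% of gene bodies and 18.6% of distal sequence, and extra 07-473 bases 3.79% against 4.58% and 3.17%.

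By gene list, ab8580 called 243 of 415 olfactory receptor promoters, 07-473 called 65 and at least 1 narrow list called 7. Of 94 keratin-associated protein genes, which build the hair shaft, ab8580 called 67, 07-473 called 14 and no narrow list any. Of 24 bitter taste receptor promoters ab8580 called 9 and 07-473 called 0. Of 46 defensin promoters they called 14 and 5, and of 19 late cornified envelope promoters, active in the outer skin, 10 and 1. For liver genes the counts were 15 and 6 of 18, for pancreas and gut genes 10 and 4 of 15, and for muscle genes 8 and 5 of 15. They were 5 and 4 of 19 for neural genes, and 17 and 9 of 20 for lymphoid genes. Neural promoters had a median of 92 CG pairs per window against 13 to 30 in the other tissue-restricted lists, and their ab8580 share was the lowest of the 10 (26.3%). For the erythroid, housekeeping and cell cycle genes the shares called by the widespread lists lay within the range of the narrow ones. ab8580 called 20 of 26 erythroid promoters, 07-473 called 21 and the narrow lists 53.8% to 84.6%. Of 23 housekeeping promoters ab8580 called 20, 07-473 called 22 and the narrow lists 60.9% to 100%. Of 20 cell cycle promoters they called 17, 19 and 55.0% to 95.0%. The erythroid promoter of SLC4A1, the band 3 anion exchanger gene, was called by both widespread lists (2001 and 430 bases) and by no narrow list. The alpha-globin gene HBA2 held no base in any of the 8 lists. It has a near-identical copy, HBA1, and the effect of that on the calls was not tested.

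**Figure D2:**
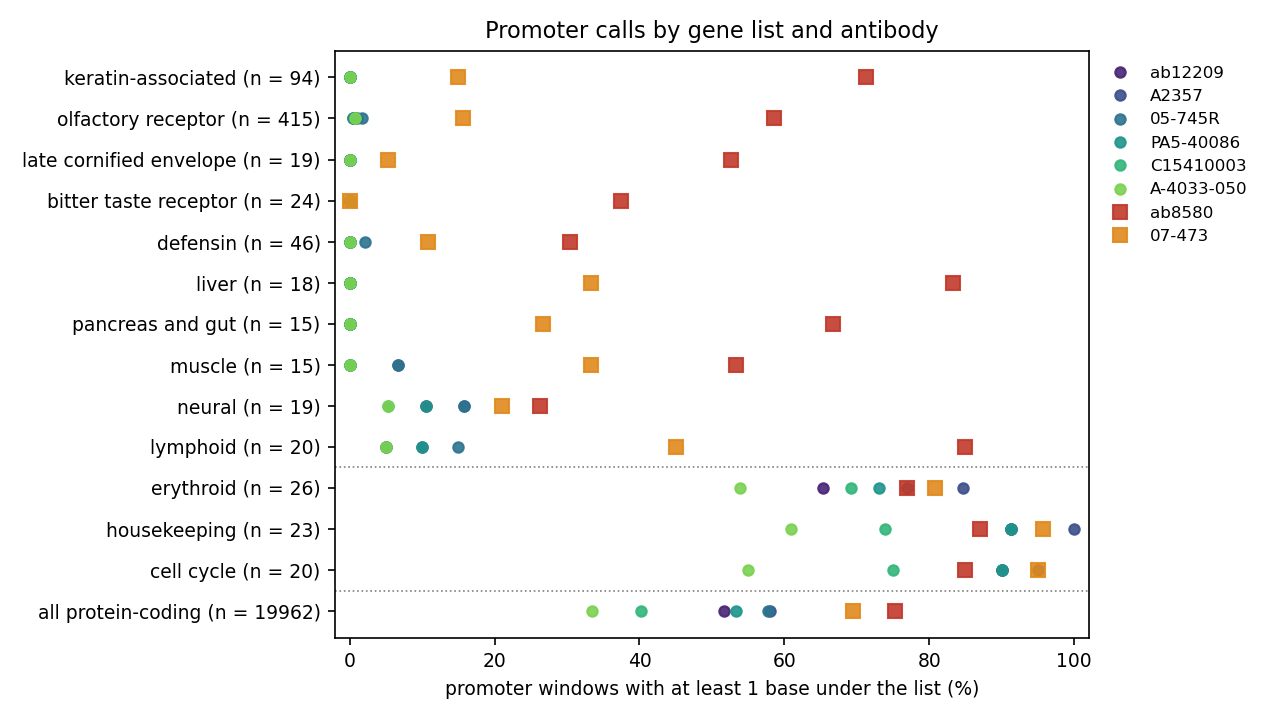
Percent of promoter windows with at least 1 base under each of the 8 H3K4me3 lists, for 10 tissue-restricted gene lists (top), the erythroid, housekeeping and cell cycle lists, and all protein-coding genes (bottom). In the tissue-restricted lists ab8580 stands at 26.3% to 85.0% and 07-473 at 0% to 45.0%, and the narrow lists reach at most 15.8%.

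Single silent promoters show how the calls were placed in the 2001-base windows. For OR6N1 ab8580 covered all 2001 bases and 07-473 1357, with 0 in each narrow list. OR51T1 was alike with 2001 and 1334 bases. CCR7, a chemokine receptor gene of lymphocytes, had 2001 and 1071, and CD8A, a T cell coreceptor gene, 1840 and 914. PGC, a pepsinogen gene of the stomach, had 2001 and 834. CTRB1, a pancreatic chymotrypsinogen gene, had 1436 and 1207. HPX, the liver gene of the haem-binding protein haemopexin, had 1254 and 789. ACTA1, skeletal muscle actin, had 2001 and 622, and NEUROD1, a neuronal transcription factor gene, had 1622 and 330. At the antithrombin gene SERPINC1 (2001 bases), the taste receptors TAS2R40 and TAS2R5 (2001 each), TNNT3 (1909), SLC32A1 (1659) and LCE7A (1036) only ab8580 made a call. KRTAP17-1 had 1956 and 393 bases, KRTAP5-9 2001 and 274, DEFB124 1643 and 522, DEFB123 1559 and 476, and LCE3A 1179 and 358. Each of these 20 windows held a peak in at least 3 of 5 H3K4me1 lists, as did 80.5% of all promoters and 60.2% of those in no narrow list. Among tissue-restricted promoters in no narrow list, that share was 96.6% where both widespread lists made a call and 81.5% where only ab8580 did.

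The number of CG pairs differed in its median between classes of promoter, with no test. The median window held 109 CG pairs where a narrow and both widespread lists made a call (10957 promoters). It held 46 where only the 2 widespread lists did (1739), 28 where only ab8580 did (2273) and 74 where only 07-473 did (459). At 3214 promoters none of the 8 lists made a call, with a median of 62. In the 3 smaller classes with a narrow peak, which lacked 1 or both widespread lists, the medians were 119 (728 promoters), 129 (58) and 130 (534). Median GC content was 53.6% where only the 2 widespread lists made a call and 53.8% where no list did.

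Around the TSS of 6776 genes of at least 50 kb, cover by each list was followed by distance. At the TSS itself ab8580 covered 66.9% of genes, 07-473 64.8% and the narrow lists 28.2% to 58.7%. At 2 kb into the gene the values were 59.0%, 35.8% and 6.98% to 19.1%, and at 10 kb 38.7%, 7.87% and 0.177% to 1.17%. The H3K4me2 list of 05-1338 held 45.2% at the TSS, 58.6% at 0.5 kb, 33.5% at 2 kb and 5.40% at 10 kb. The other H3K4me2 lists stayed higher at 10 kb, with 29.0% for 710796, 54.2% for ab7766 and 74.8% for 9725. The H3K4me1 lists ranged from 27.7% to 59.5% at the TSS and from 49.1% to 68.5% at 10 kb.

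**Figure D3:**
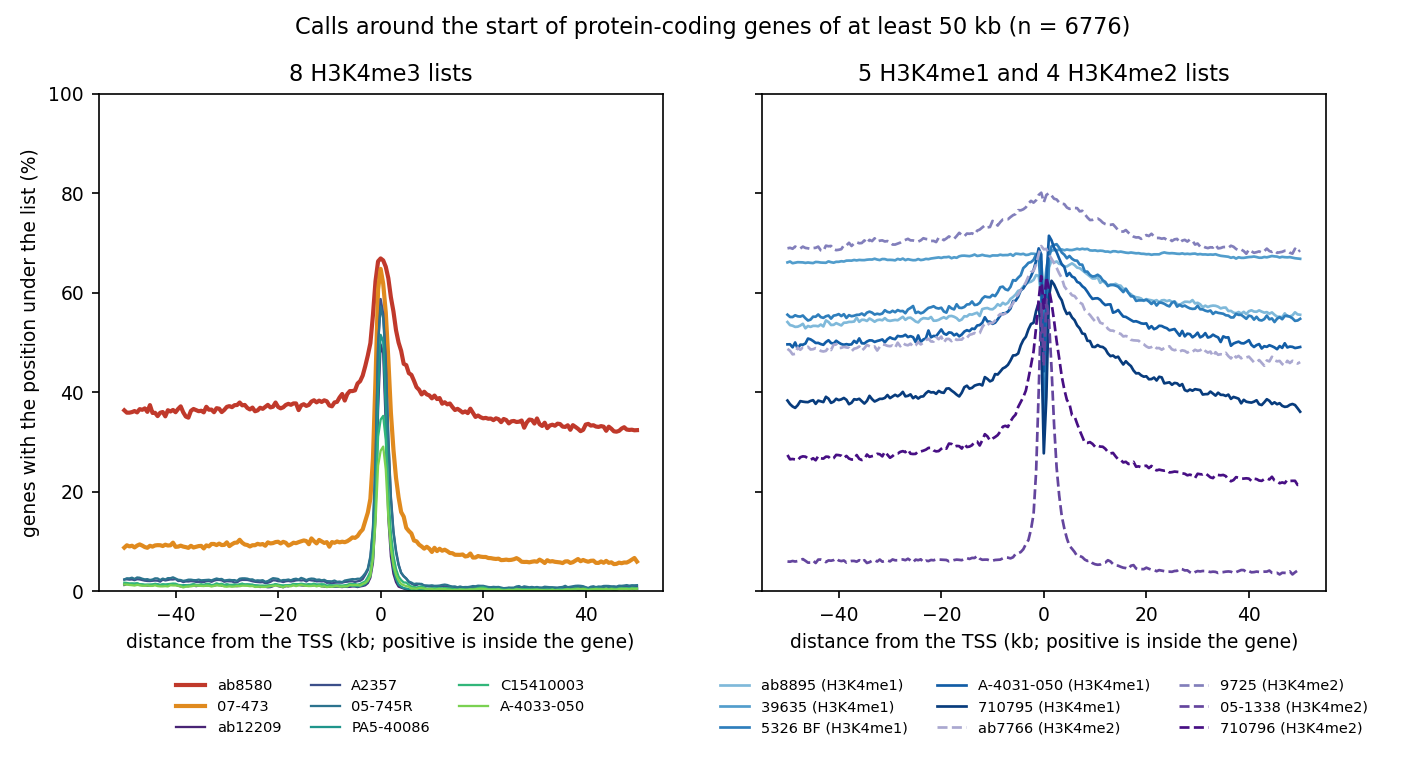
Percent of 6776 protein-coding genes of at least 50 kb whose position at each distance from the TSS lies under a list, for the 8 H3K4me3 lists (left) and the 9 H3K4me1 and H3K4me2 lists (right). ab8580 stays at 38.7% and 07-473 at 7.87% at 10 kb into the gene, where no narrow list exceeds 1.17%.

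Counted together, the H3K4me1 and H3K4me2 lists covered most of the extra sequence. Single lists differed, and of extra distal ab8580 bases they held from 5.86% (05-1338) to 92.1% (Active Motif 39635). A base was counted for a mark when at least 3 of 5 H3K4me1 or 2 of 4 H3K4me2 lists held it. Of all sequence outside the narrow lists, 27.2% was counted for both marks, and 35.1% was under none of the 9 lists. Of the extra ab8580 bases 65.6% were counted for both marks and 1.78% were under none of the lists. For 07-473 the values were 82.9% and 2.65%. For the bases called by both widespread lists they were 92.3% and 0.177%. Bases of 07-473 that ab8580 did not call stood apart, with 47.9% counted for both marks and 11.8% under none of the lists. All 9 lists held 38.8% of the bases called by both, 1.38% of those of ab8580 alone and 1.65% of sequence outside the narrow lists.

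By place, the share of extra ab8580 bases counted for both marks was 58.7% in distal sequence, 68.9% in gene bodies and 57.1% in tissue-restricted promoters, against 18.2%, 35.6% and 25.1% of the same places outside the narrow lists. For 07-473 it was 78.2%, 86.1% and 89.5%. Bases counted for H3K4me1 alone made up 10.3%, 12.6% and 12.4% of the extra ab8580 bases and 4.45%, 4.08% and 4.03% of the extra 07-473 bases. Bases counted for H3K4me2 alone made up 8.29%, 5.35% and 8.10% for ab8580 and 4.47%, 2.81% and 1.34% for 07-473. Of the same places outside the narrow lists, H3K4me1 alone made up 4.98%, 10.8% and 8.90%, and H3K4me2 alone 5.39%, 5.53% and 7.25%. The extra 07-473 shares lay below these in every place.

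**Figure D4:**
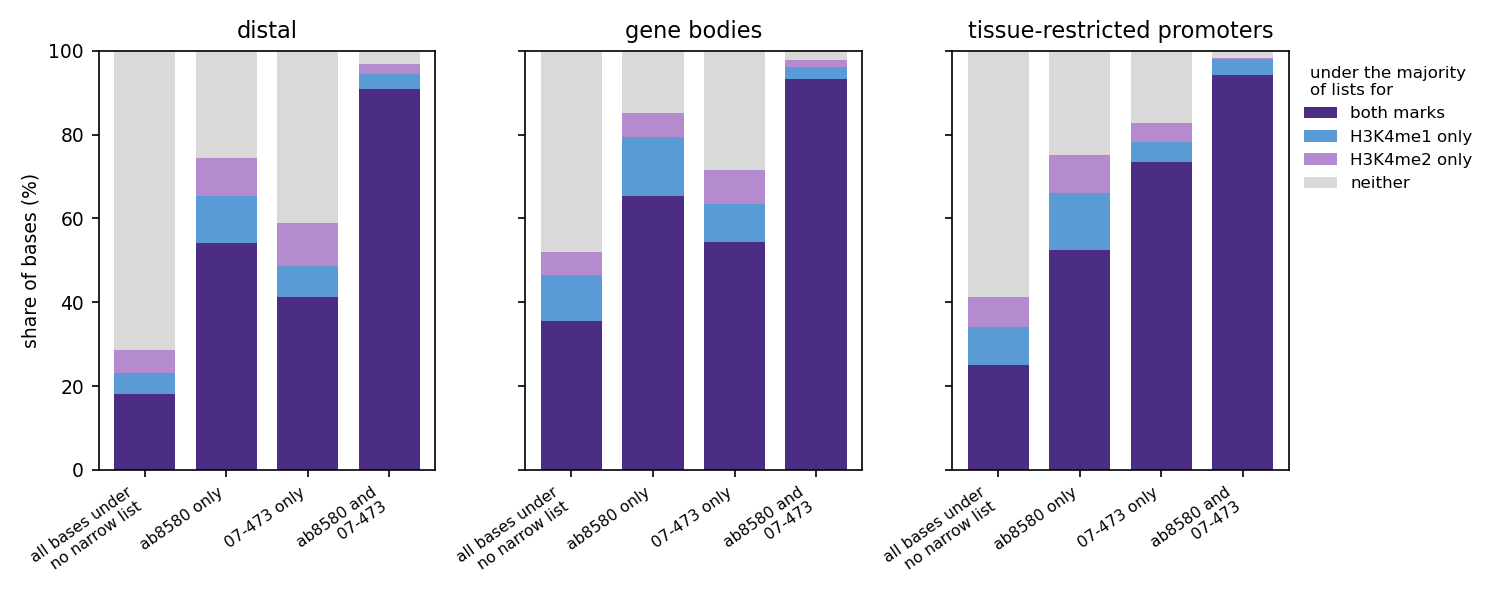
Share of bases counted for H3K4me1 (at least 3 of 5 lists), for H3K4me2 (at least 2 of 4 lists), for both or for neither, in all sequence under no narrow list and in the bases that ab8580 alone, 07-473 alone or both added, by place. Bars of bases called by both widespread lists reach 91.0%, 93.3% and 94.1% for both marks in distal sequence, gene bodies and tissue-restricted promoters.

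Whether the extra bases met H3K4me1 or H3K4me2 antibodies more was tested over antibodies. The log2 overlap ratio of an antibody is the log2 of the share of extra bases under its list over the share of the whole place, outside the narrow lists, under it. In extra distal bases of ab8580 the ratios of the 5 H3K4me1 antibodies ran from 1.01 to 1.66, with a mean of 1.41 ± 0.24 (SD). Those of the 4 H3K4me2 antibodies ran from 1.13 to 2.00, with a mean of 1.58 ± 0.37. The groups overlapped, and the difference of -0.17 did not pass (exact two-sided permutation test, p = 0.444, Benjamini-Hochberg adjusted over 9 tests p = 0.444). In gene bodies the means were 0.75 ± 0.11 and 0.99 ± 0.37 (difference -0.23, exact permutation adjusted p = 0.393). In tissue-restricted promoters they were 0.91 ± 0.19 and 1.08 ± 0.33 (difference -0.17, exact permutation adjusted p = 0.393).

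For 07-473 the ratios spread further. In distal sequence they ran from 0.84 to 2.33 for H3K4me1 (mean 1.68 ± 0.54, n = 5) and from 1.21 to 4.46 for H3K4me2 (2.47 ± 1.43, n = 4). The means were 0.93 ± 0.35 and 1.89 ± 1.48 in gene bodies, and 1.32 ± 0.55 and 2.17 ± 1.47 in tissue-restricted promoters. The differences were -0.79, -0.96 and -0.85, each with an exact permutation adjusted p of 0.393. The difference between both widespread lists was tested by taking each antibody's ratio for 07-473 minus that for ab8580. This gave H3K4me1 minus H3K4me2 values of -0.62, -0.73 and -0.67, also with an exact permutation adjusted p of 0.393. None of the 9 tests passed, 0 had an unadjusted p under 0.05, and the smallest p possible for 5 against 4 antibodies is 0.0159. On a scale of percentage points instead of ratios, 5 of the 9 differences turned in favour of H3K4me1, by up to 11.0 points, and again none passed. A long list cannot reach a high ratio, since its share of the place is already large. The ratio also has a ceiling, set by the share of the place outside the narrow lists that the widespread list covers. This ceiling is lower for ab8580, which covered more of each place. The wider spread of the 07-473 ratios can follow in part from it. The tests of 07-473 minus ab8580 cannot tell a difference in overlap from this difference in length, so no conclusion is drawn from them.

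**Figure D5:**
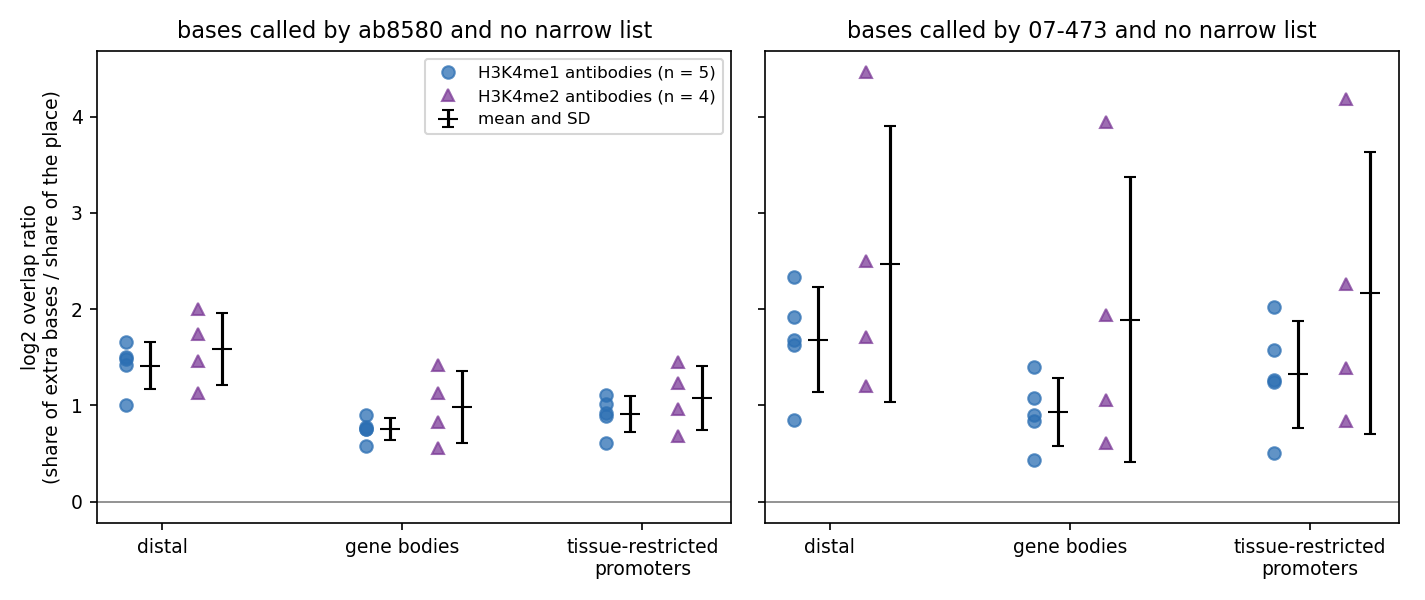
Log2 overlap ratio of each H3K4me1 (circles, n = 5) and H3K4me2 antibody (triangles, n = 4) in the bases that ab8580 (left) or 07-473 (right) called and no narrow list called, by place, with the mean and SD of each group. All 54 ratios lie above 0, and the highest triangle in each column of the right panel is EMD Millipore 05-1338, up to 4.46.

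By this ratio, the H3K4me2 list of 05-1338 ranked first for the extra sequence of 07-473 in each place. By share it ranked last of the 9 lists, with 32.3% of extra distal bases against 68.9% to 90.3% for the others. It held 1.47% of all distal bases outside the narrow lists, which gave a ratio of 22.0. In gene bodies the ratio was 15.4 and in tissue-restricted promoters 18.2. Read from the other side, 70.3% of the distal bases of 05-1338 outside the narrow lists were under 07-473, 71.6% of those in gene bodies and 69.3% of those in tissue-restricted promoters. Under ab8580, which covered more of each place, lay 74.6%, 79.0% and 73.7% of them, so this overlap was not particular to 07-473. With every H3K4me1 and H3K4me2 list reduced to its highest peaks at the length of the shortest, 110.6 Mb, which is that of 05-1338, its ratios stayed first for 07-473. The second in distal sequence was then Thermo Fisher 710796, also H3K4me2, with 10.9. For ab8580 the 05-1338 ratio was 3.99 in distal sequence at that length, next to 3.72 for 710796 and 3.67 for the H3K4me1 antibody Active Motif 39635. Without 05-1338, the only one of the 9 libraries with 12 cycles, the differences in distal sequence, gene bodies and tissue-restricted promoters shrank to -0.12, -0.27 and -0.17 for 07-473. Those for ab8580 shrank to -0.03, -0.09 and -0.05, and those between both lists to -0.09, -0.19 and -0.12. The part of the cycle number was not tested.

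The lists of other marks cover so much of the genome that they separated little. The H3K9me3 list covered 96.9% of the sequence. The H3K27me3 list covered 69.7% of the sequence, 94.3% of extra ab8580 bases and 87.4% of extra 07-473 bases. At least 50% of the window lay under H3K27me3 at 14333 of 19962 promoters, among them 7665 that ab12209 called. The authors computed the corrected H3K4me3 list from ab8895, ab7766, ab12209 and ab8580. It covered 1.92% of extra ab8580 bases and 0.71% of extra 07-473 bases, against 0.504% of all sequence outside the narrow lists. Of the bases that all 6 narrow lists called it covered 36%. Of its H3K4me3 inputs, ab8580 is widespread and ab12209 narrow.

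Across chromosomes the extra ab8580 sequence varied widely. It made up 40.6% of chromosome 19 and 40.1% of chromosome 1, but 3.83% of chromosome 14, 2.79% of chromosome 13 and 1.53% of the X chromosome. Extra 07-473 sequence was lowest on the same 3 chromosomes, with 2.44%, 1.53% and 1.32%, against 7.96% on chromosome 19. The mean cover by the H3K4me1 lists was low there too, with 15.7%, 9.16% and 7.00%, against 59.5% on chromosome 19. The number of copies of each chromosome in the cells was not measured here, and its part in these values was not tested.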

How the data were processed

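Peak lists on GRCh38 (hg38) were used, 1 per antibody. They came from Bowtie2, SAMtools, bedtools and MACS2, per the submitters' processing notes. The sources used here give no settings, versions or rule for high confidence. Most lists hold 1 signal value per peak as deposited, with no unit named. The lists of ab8580, C15410003, A-4033-050, H3K9me3 and H3K27me3 hold positions only. The corrected lists were computed by the authors from 4 libraries, ab8580 and ab12209 among them, per the deposited notes. Read depth is unknown, so no counting interval was computed, and a window without a listed peak does not show an unmodified promoter. Samples were grouped by the labels' antibody and target, and the inputs and the 4 mouse samples were not analysed here.

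The members, gene lists and tests were chosen with earlier results of these data known. Peaks on chromosomes 1 to 22 and X were merged and intersected base by base with Python 3.11.15 and NumPy 2.4.6, leaving out assembly gaps. Genes and canonical TSSs were from GENCODE release 44, with 1 gene per symbol. Means over 5 H3K4me1 and 4 H3K4me2 antibodies were compared by exact two-sided permutation tests, adjusted over 9 tests (threshold 0.05), which were tested on simulated lists first. No label tells of separate cultures. The p-values therefore describe how antibodies vary, not cultures. An exact permutation test of 2 against 6 lists cannot go below p = 0.0714, and none was run. Named promoters were, from each tissue-restricted list, the 2 genes without a narrow peak with the highest sum of bases under ab8580 and under 07-473. Named gene bodies were the 10 with the most bases called by both widespread lists alone, the 5 of at least 20 kb with the highest share and the 4 erythroid genes with the most. Named distal regions were the 10 widest. SLC4A1 and HBA2 were named after their values were seen. The sequence of a shared promoter is not reported here. Alternatives changed the narrow reference, the windows, the peaks kept, the scale and the antibodies left out.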

Additional observations from a re-analysis of the deposited data

How the results depend on the processing

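No paired analysis was possible because each replicate number only names an antibody in accession order. None of the 9 tests passed under any of the 27 to 29 alternatives each was given, with adjusted p from 0.143 to 0.893, and 6 of their values changed sign. On the scale of percentage points the H3K4me1 minus H3K4me2 difference for ab8580 became 11.0 points in distal sequence, 8.76 in gene bodies and 8.29 in tissue-restricted promoters, and for 07-473 5.30 in distal sequence and 2.57 in tissue-restricted promoters. With whole extra peaks, the log2 value for ab8580 in gene bodies became 0.033. The cause was not tested.

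Extra lengths and counts stayed within 1.5 times for every other choice of narrow lists, for leaving out each narrow list, chromosomes 13, 14 and X or peaks over 1 Mb, and for overlap by 0.5 of a peak. With 07-473 peaks at or above their median value, fewer by construction, its extra lengths were 25.6 Mb distal, 38.6 Mb in gene bodies and 0.0305 Mb in tissue-restricted promoters, with 34388 and 38523 extra peaks and 46 promoters. Tissue-restricted promoters were also moved by what they held. Windows of 2.5 kb gave 0.862 Mb for ab8580, and 0.121 Mb and 177 promoters for 07-473. Without olfactory receptors there were 0.153 and 0.0196 Mb and 150 and 41 promoters. Promoters at least 50% under H3K27me3, a far larger set, gave 6.82 and 2.55 Mb and 3617 and 1912 promoters. Among named genes, 27 recomputed values moved by over 1.5 times and 140 did not. When the gene's 5′ end served as TSS, DEFB124 and CD8A held 0 bases of 07-473, HPX 70 and PGC 109.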
